A study of Mus musculus with 4 samples.

Results

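Heparan sulfate proteoglycan genes were examined in the mouse mammary tumor line 4T1, sorted for high or low mitochondrial membrane potential (MMP). The set of 10 genes was defined by name: the extracellular sulfatases *Sulf1* and *Sulf2*, the syndecans *Sdc1* to *Sdc4*, the glypicans *Gpc1* and *Gpc4*, the 6-O-sulfotransferase *Hs6st1* and the heparanase *Hpse*. Values of 9 of them, out of 20197 genes in the table, were analysed, and *Sulf1* was not analysed here. *Sulf2* was included because in these samples it exceeded 2-fold, high over low MMP, for replicates 1 and for replicates 2, so its difference between the groups is described without a test, whereas the others were included as members of the same families.

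All 4 samples were wild-type 4T1 cells cultured in DMEM with 10% serum, Hepes and pen/strep, and labelled with 20 nM MitoSpy Red, a dye that gathers in mitochondria with a high membrane potential. The 5% of cells with the strongest label (high MMP, n = 2) and the 5% with the weakest (low MMP, n = 2) were collected, and mRNA was sequenced from each. All results refer to this single line in culture. The study counts its replicates of this comparison as independent experiments, and the labels do not say whether a high and a low MMP sample of the same number came from the same one.

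Heparan sulfate is a long sugar chain built on a small number of core proteins at the cell surface and in the matrix. Sulfate groups placed along the chain in the Golgi decide which growth factors, chemokines and Wnt proteins it binds, and the chain presents them to their receptors. The SULF enzymes act outside the cell and remove 6-O-sulfate from finished chains, which loosens the hold on some ligands and weakens the receptor complexes of others, and heparanase cuts the chain itself. Syndecans span the membrane, and glypicans are held to it by a lipid anchor.

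The libraries held 22591970 to 26395015 reads assigned to genes. Values are given as normalized reads, on a scale where each library sums to 20000000, and 1 read was worth 0.758 to 0.885 of these units. The tumor cell label was checked on marker genes: all 6 epithelial markers (*Epcam*, *Cdh1* and 4 keratins) had at least 10 reads in every library and summed to 47592 to 65174 in high and 54730 to 62416 in low MMP cells. The 3 leukocyte markers analysed summed to 72.0 to 147 in high and 105 to 156 in low MMP cells, with *Ptprc* at 0 to 2 reads, *Csf1r* at 8 to 15 and *Cd68* at 79 to 171, and the 3 endothelial markers analysed summed to 5.02 to 12.9 in high and 6.10 to 9.74 in low MMP cells. In high MMP 1, protein-coding mitochondrial transcripts took 1.27% of its reads, against 2.02% to 2.24% in the others. Whether fewer cells expressed a gene or each cell held less of its RNA cannot be told apart in these bulk samples.

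*Sulf2* (ENSMUSG00000006800, GRCm38 chromosome 2, 166073089 to 166155663, minus strand, protein-coding) was the member that separated the groups most. It had 174 normalized reads in high MMP 1, 196 in high MMP 2, 80.2 in low MMP 1 and 63.7 in low MMP 2. Both high MMP samples lay above both low MMP samples. The precision set by counting (exact Poisson interval, 95%, counting error only) was, for example, 152 to 198 for high MMP 1 and 64.7 to 98.4 for low MMP 1. The group means were 185 ± 15.8 and 72.0 ± 11.6 (SD, n = 2 each), a ratio of 2.57. On the log2(value + 1) scale the difference, high minus low, was 1.35 (SE 0.18).

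The ratio that defined the choice of *Sulf2* was 2.16 in pair 1 and 3.07 in pair 2. Only *Sulf2* among the members lay inside this limit, and the nearest member outside it, *Sdc3*, had ratios of 1.32 and 1.53. Of 12902 genes whose mean was 10 normalized reads or more, 22 (0.171%) were inside it, and *Sulf2* had rank 8 by log2 difference. The values rest on 229 and 234 recovered reads for high MMP 1 and 2, and 92 and 72 for low MMP 1 and 2. Leaving out 1 sample at a time gave differences of 1.19 to 1.52. The rule used these same samples, so this range describes the values and is no separate support for the difference.

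**Figure D1:**
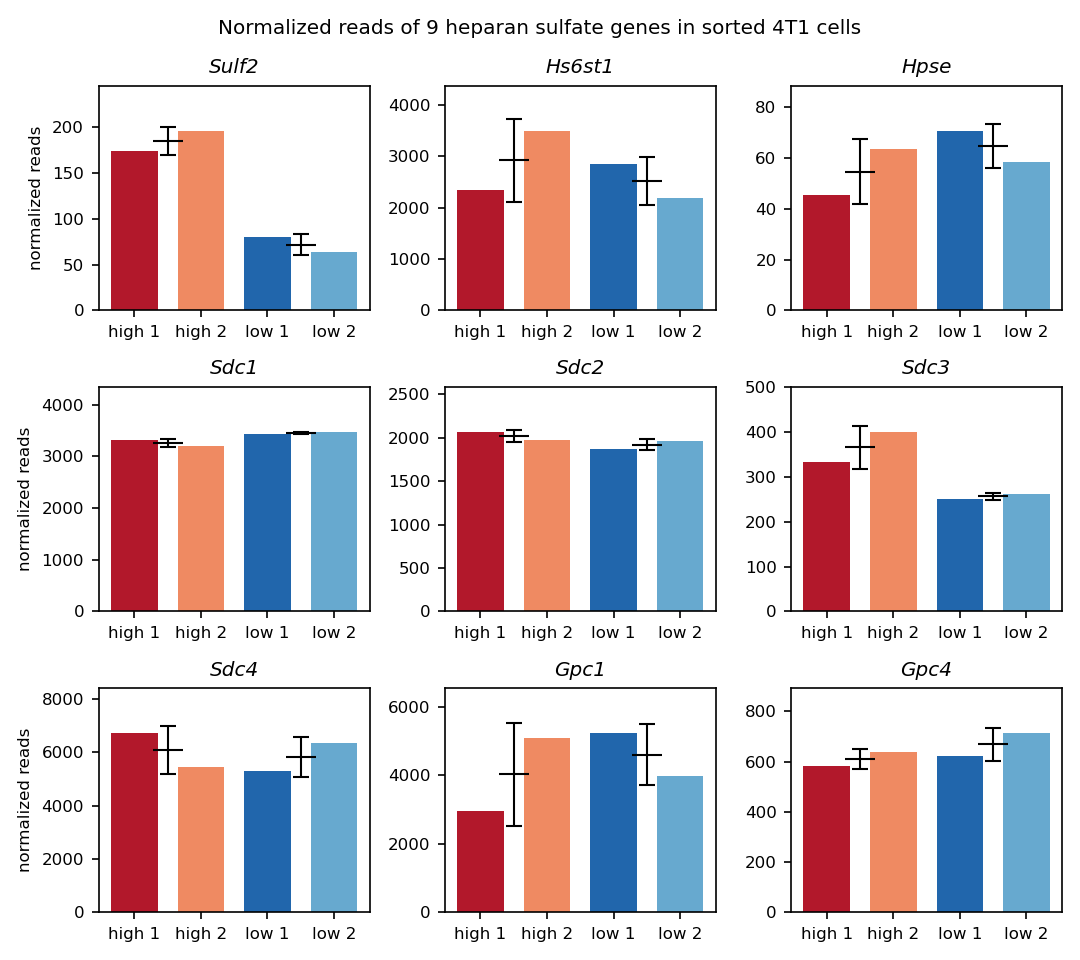
Normalized reads (vertical axes, each from 0) of the 9 members, 1 bar per library of high MMP (red and orange) and low MMP cells (dark and light blue), with the mean and SD of each group in black between its bars. *Sulf2* and *Sdc3* are visibly higher in both high MMP libraries (*Sdc3* 332 and 400 against 251 and 262). For *Hs6st1*, *Hpse*, *Sdc4* and *Gpc1* the replicates of each group lie further apart than the group means, as do the low MMP replicates of *Gpc4*.

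The windows around the 2 annotated starts of *Sulf2* are shown because this gene carries the main difference, next to those of *Prc1*, *Nusap1* and *Ube2c*, the 3 mitotic genes among the 5 whose pattern across the samples was most like it. The sequences are the 300-base RefSeq promoter windows of GRCm38.p6, and capitals mark a CCAAT box (CCAAT or ATTGG) or a CHR element (TTTGAA or TTCAAA), letters that are frequent in promoters of mitotic genes. The *Sulf2* windows are chr2:166155236-166155535 and chr2:166155634-166155933 on the minus strand, and on the plus strand the windows are chr7:80294201-80294500 for *Prc1* (the first of 2), chr2:119618048-119618347 for *Nusap1* and chr2:164769679-164769978 for *Ube2c*.
Sulf2 first window: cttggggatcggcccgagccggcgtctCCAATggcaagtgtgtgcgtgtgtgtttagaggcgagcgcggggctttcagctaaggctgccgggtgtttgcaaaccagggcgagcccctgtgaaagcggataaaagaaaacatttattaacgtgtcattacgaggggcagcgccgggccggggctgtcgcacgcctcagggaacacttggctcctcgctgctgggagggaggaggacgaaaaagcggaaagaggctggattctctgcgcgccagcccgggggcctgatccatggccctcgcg
Sulf2 second window: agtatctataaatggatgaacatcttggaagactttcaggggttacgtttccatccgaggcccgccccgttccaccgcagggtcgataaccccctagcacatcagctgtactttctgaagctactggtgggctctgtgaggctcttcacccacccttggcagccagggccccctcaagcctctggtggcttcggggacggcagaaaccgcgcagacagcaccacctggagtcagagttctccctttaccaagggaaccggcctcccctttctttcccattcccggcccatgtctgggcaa
Prc1 window: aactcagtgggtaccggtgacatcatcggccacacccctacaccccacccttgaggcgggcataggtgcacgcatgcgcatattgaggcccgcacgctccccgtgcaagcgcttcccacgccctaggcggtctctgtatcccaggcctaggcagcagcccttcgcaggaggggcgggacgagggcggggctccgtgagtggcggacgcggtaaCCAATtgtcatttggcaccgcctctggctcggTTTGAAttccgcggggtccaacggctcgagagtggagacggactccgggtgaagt
Nusap1 window: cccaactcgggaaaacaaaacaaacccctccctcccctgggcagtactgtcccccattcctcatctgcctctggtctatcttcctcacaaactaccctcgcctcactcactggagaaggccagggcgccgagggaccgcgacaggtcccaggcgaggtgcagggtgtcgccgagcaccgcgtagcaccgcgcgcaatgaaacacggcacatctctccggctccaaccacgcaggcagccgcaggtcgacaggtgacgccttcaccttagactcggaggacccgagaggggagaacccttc
Ube2c window: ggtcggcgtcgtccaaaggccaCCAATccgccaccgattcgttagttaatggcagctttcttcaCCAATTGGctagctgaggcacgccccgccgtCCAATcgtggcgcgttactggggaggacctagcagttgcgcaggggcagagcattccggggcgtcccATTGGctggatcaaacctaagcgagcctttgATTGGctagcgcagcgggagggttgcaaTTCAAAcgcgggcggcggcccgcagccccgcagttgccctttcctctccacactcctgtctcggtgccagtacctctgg

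One *Sulf2* window held 1 CCAAT box, the other held none, and neither held the CHR letters. The *Nusap1* window held 0 of either motif, each *Prc1* window held 1 of each, and the *Ube2c* window held 6 CCAAT matches, of which one pair overlaps on opposite strands, and 1 CHR match. For *Postn*, also among those 5, the first window held 1 CCAAT and 2 CHR matches and the second 0 of either. Of 32851 promoter windows of this length, 37.4% held a CCAAT box, 17.9% the CHR letters and 7.0% both. The motifs were chosen after the values were seen, and a match or its absence describes these letters only. The *Sulf2* windows had 26 and 12 CpG dinucleotides, against a median of 7 over all windows. This was not particular to *Sulf2*: the windows shown had 27 (*Prc1*), 22 (*Nusap1*) and 25 (*Ube2c*). The other members with a window had 14 (*Sdc1*) to 47 (*Hs6st1*), whereas the *Postn* windows had 4 and 5.

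The enzyme that counters *Sulf2* did not separate the groups. *Hs6st1*, which adds 6-O-sulfate to the growing chain (ENSMUSG00000045216, chromosome 1, 36068400 to 36106446), had 2343 and 3492 normalized reads in high MMP 1 and 2, and 2852 and 2180 in low MMP 1 and 2. The groups overlapped, with means of 2917 ± 813 and 2516 ± 475 (SD, n = 2 each). The log2 difference was 0.20 (SE 0.25, limma adjusted p 0.881), and it turned to -0.09 without high MMP replicate 2. Its same-numbered pairs went opposite ways, at -0.28 and 0.68.

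Set against *Hs6st1* and corrected for exon length, there were 6.99 *Sulf2* transcripts per 100 of *Hs6st1* in high MMP 1 and 5.29 in high MMP 2, against 2.65 in low MMP 1 and 2.76 in low MMP 2. This ratio of sulfatase to sulfotransferase RNA was thus higher in both high MMP samples, as *Sulf2* itself was, and is given as a description because it holds the gene that was picked.

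*Hpse*, the enzyme that cleaves heparan sulfate chains (ENSMUSG00000035273, chromosome 5, 100679484 to 100719716), was the least abundant member. It had 45.5 and 63.6 normalized reads in the high MMP samples and 70.6 and 58.4 in the low, on 60 to 81 reads per library. The groups overlapped, and the log2 difference of -0.25 (SE 0.25, limma adjusted p 0.845) was the size of its error. Without high MMP replicate 1 the difference shrank to -0.01. Its same-numbered pairs went opposite ways, at -0.62 and 0.12. The counting interval of high MMP 1 (34.7 to 58.5) overlapped slightly with that of low MMP 1 (56.1 to 87.8), which does not decide whether they differ.

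Among the syndecans, *Sdc3* differed most. *Sdc3* (ENSMUSG00000025743, chromosome 4, 130792537 to 130826319) had 332 and 400 normalized reads in high MMP 1 and 2 and 251 and 262 in low MMP 1 and 2. Both high MMP values exceeded both low MMP values, at group means of 366 ± 48.2 and 257 ± 7.76 (SD, n = 2 each) and a ratio of 1.43. The log2 difference was 0.50 (SE 0.13; 0.40 in pair 1 and 0.61 in pair 2). It did not pass in limma, with an unadjusted p of 0.0167 and an adjusted p of 0.472, nor in edgeR with no block (adjusted p 0.689), edgeR with the replicate block (adjusted p 0.429) or DESeq2 (adjusted p 0.408). Leaving out 1 sample, the unadjusted limma p was 0.0112 without high MMP replicate 1, 0.0344 without high MMP replicate 2, 0.113 without low MMP replicate 1 and 0.0896 without low MMP replicate 2, on 1 residual degree of freedom each.

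The remaining syndecans differed far less between the groups. *Sdc4*, a component of focal adhesions (ENSMUSG00000017009, chromosome 2, 164424247 to 164443887, 1.63 Mb from *Sulf2*), had 6730 and 5467 normalized reads in high MMP 1 and 2, and 5289 and 6347 in low MMP 1 and 2. Its replicates lay further apart than the groups, with a log2 difference of 0.07 (SE 0.16, limma adjusted p 0.964), which became -0.08 without high MMP replicate 1 and -0.07 without low MMP replicate 1.

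*Sdc1*, the main syndecan of epithelial cells (ENSMUSG00000020592, chromosome 12, 8771323 to 8793715), had 3313 and 3204 normalized reads in the high MMP samples and 3440 and 3475 in the low. Both low MMP samples were above both high MMP samples, but by little: the log2 difference was -0.09 (SE 0.08, limma adjusted p 0.811). *Sdc2* (ENSMUSG00000022261, chromosome 15, 32920723 to 33034935) had 2066 and 1967 normalized reads in high and 1871 and 1961 in low MMP samples, a log2 difference of 0.07 (SE 0.08, limma adjusted p 0.855). Its groups did not overlap, although high MMP 2 and low MMP 2 were nearly equal.

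Neither glypican passed the test. *Gpc1* (ENSMUSG00000034220, chromosome 1, 92831645 to 92860779) was the most variable member, with 2963 and 5085 normalized reads in high MMP 1 and 2 and 5236 and 3969 in low MMP 1 and 2. The low value of high MMP 1 set the direction of the group difference, which was -0.23 (SE 0.31, limma adjusted p 0.895) on the log2 scale and became 0.16 without high MMP replicate 1. The spread between its high MMP replicates, -0.78, was larger than that between the groups. *Gpc4* (ENSMUSG00000031119, chromosome X, 52053021 to 52165252) was steadier, with 582 and 638 normalized reads in high and 622 and 714 in low MMP samples, and a log2 difference of -0.13 (SE 0.11, limma adjusted p 0.810).

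**Figure D2:**
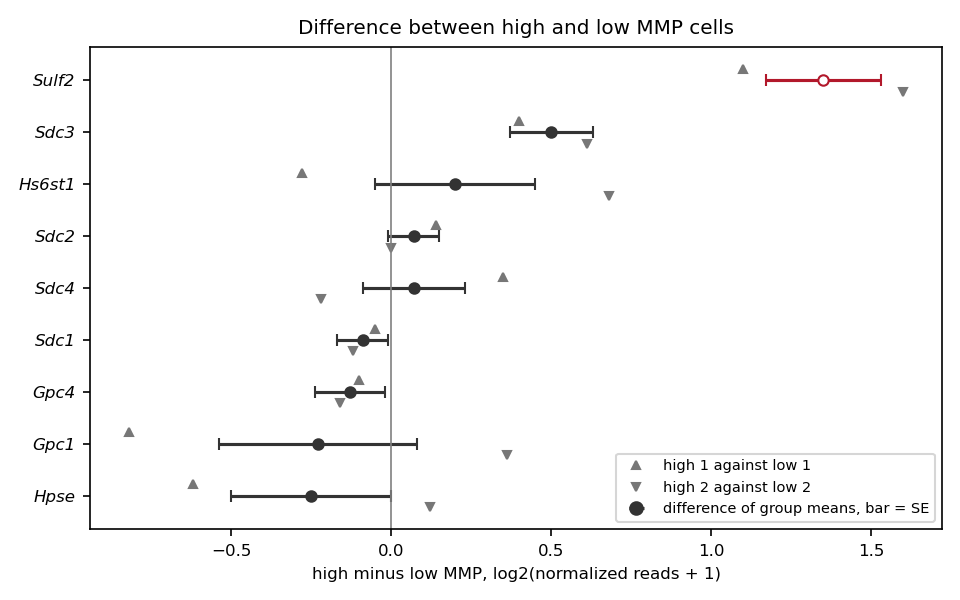
Difference between high and low MMP cells (horizontal axis, log2 of normalized reads + 1) for each member, with circles for the difference of the group means, bars for its SE from limma and triangles for the same-numbered pairs. *Sulf2* (open circle, picked on these values) lies at 1.35, *Sdc3* at 0.50, and the others between -0.25 and 0.20, with pairs on opposite sides of 0 for *Hs6st1*, *Sdc4*, *Gpc1* and *Hpse*.

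Of the 8 members that were tested, 0 passed the threshold of 0.05 for the adjusted p in limma, where 0 of 20197 genes (0%) passed. At an unadjusted p under 0.05, 1 of the 8 (*Sdc3*) was higher in high MMP cells, against 3.95% of all genes, and 0 were lower, against 6.01% (9.96% in either direction). The count of members was also 0 in edgeR with no block (0% of genes called) and in edgeR with the replicate block (0.525% of genes called). It was also 0 in DESeq2, where 0.954% of the 12365 genes with an adjusted p were called. In edgeR with crossed replicate numbers, a block chosen after seeing the data, it was 1 (*Sdc3*), where 3.63% of genes were called. Both high MMP samples were above both low MMP samples in 2 of these members (*Sdc2* and *Sdc3*), and both low above both high in 1 (*Sdc1*). Among all genes with a mean of 10 or more the shares were 14.3% and 23.7%. The median log2 difference was -0.01 over the 8 members and -0.04 over all genes.

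Compared per exon length, in reads per kb of exon scaled to library size (RPKM), the core proteins far outweighed the enzymes that act on finished chains. *Sdc4* had the highest mean level over the 4 samples, 117 (104 to 132), and did not overlap with any other member. *Sdc1* followed at 44.1 (42.1 to 45.6) and *Gpc1* at 41.8 (28.7 to 50.7), which overlapped with each other. *Gpc1*, *Sdc2* at 27.9 (26.5 to 29.3) and *Hs6st1* at 24.5 (19.7 to 31.5) also overlapped as neighbours in this order. *Gpc4*, at 12.1 (at most 13.5), stood apart from both its neighbours, and *Sdc3* had 2.60 (2.10 to 3.34).

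*Sulf2*, at a mean of 1.09, and *Hpse*, at 0.846, had the lowest levels per length, and their order differed between the groups. In high MMP cells *Sulf2* had 1.48 and 1.67 RPKM and *Hpse* 0.647 and 0.904. In low MMP cells *Sulf2* had 0.683 and 0.543 and *Hpse* 1.00 and 0.831. The ratio of *Sulf2* to *Hpse* was thus 2.29 and 1.84 in the high MMP samples and 0.680 and 0.653 in the low. This order and ratio are given as a description, because they hold *Sulf2*, the gene that was picked.

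The summed RNA level of the 6 core protein genes, of which *Sdc4* made up the largest portion, was 247 and 242 RPKM in high MMP 1 and 2, and 240 and 252 in low MMP 1 and 2. Within the syndecans, *Sdc4* took 63.6% and 59.4% of the summed level in high and 58.5% and 62.2% in low MMP samples. *Sdc1* took 20.9% to 25.4%, *Sdc2* 13.9% to 15.4% and *Sdc3* 1.09% to 1.85%. *Sdc3* was the only syndecan whose share was higher in both high MMP samples (1.33% and 1.85%) than in both low (1.18% and 1.09%).

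The wider pathway was read from 7 lists of 101 genes outside the members, 78 of which were analysed. In limma 0 of the 78 passed in either direction. At an unadjusted p under 0.05, 0 were higher, against 3.95% of all genes, and 4 were lower, against 6.01% (*Slc35b2*, *Pdgfra*, *Fgf2* and *Wnt4*, the last pair at 0 to 4 reads per library). Of the 65 whose mean was 10 or more, both high MMP samples were above both low in 5 (7.69%, against 14.3% of all such genes), and both low above both high in 13 (20.0%, against 23.7%). The median difference over these 65 was -0.08, and over all such genes it was -0.03.

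Among the other carriers of heparan sulfate, both high MMP samples were above both low in 1 of the 6 whose mean reached 10 (16.7%, against 14.3% of all such genes). This was *Tgfbr3* (named after its values were seen), at a log2 difference of 0.19 (SE 0.09). Both low were above both high in 0 (0%, against 23.7%). *Hspg2* and *Agrn* were lowest in high MMP 1. *Hspg2*, the basement membrane proteoglycan perlecan, had 5604 normalized reads in high MMP 1, against 9595 in high MMP 2 and 9247 and 8600 in low MMP 1 and 2. *Agrn*, the matrix proteoglycan agrin, followed with 4690, against 8753, 8238 and 7101. Their log2 differences were -0.28 (SE 0.28) and -0.26 (SE 0.33), and without high MMP replicate 1 they were 0.11 and 0.19. *Cd44*, the hyaluronan receptor that carries heparan sulfate in some splice forms, was level at 7936 to 8595. Over all 7 lists, high MMP 1 was the lowest library in 40 of the 65 pathway genes (61.5%), against 37.3% of all genes at that level.

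Of the 12 linker and polymerization genes analysed, 0 passed in limma, and both low MMP samples were above both high in 3 of the 11 whose mean reached 10 (27.3%, against 23.7% of all such genes). These 3 were *Xylt2* at a log2 difference of -0.41 (SE 0.24), *B4galt7* at -0.24 (SE 0.13) and *Pxylp1* at -0.19 (SE 0.12), named after their values were seen. *Extl1*, at 6 to 14 reads per library, differed by 0.73 (SE 0.34). The most abundant were *Ugdh*, which makes the UDP-glucuronic acid building block, at 2595 to 2857 normalized reads and a log2 difference of 0.02 (SE 0.09), *Fam20b*, a xylose kinase of the linker, at -0.07 (SE 0.10), and *Extl3*, which starts the chain, at -0.15 (SE 0.22). *Fam20b* had a difference of 0.02 and *Extl3* of 0.15 without high MMP replicate 1.

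Of the 13 sulfation and sulfate donor genes, 0 passed, and in 4 of the 10 whose mean reached 10 (40.0%, against 23.7% of all such genes) both low MMP samples were above both high. These were *Ndst1*, *Hs2st1*, *Slc35b2* and *Slc35b3* (named after their values were seen, except the first pair). *Ndst1*, which begins sulfation of the chain, had 2243 and 2807 normalized reads in high and 2958 and 2949 in low MMP samples, a log2 difference of -0.24 (SE 0.13, limma adjusted p 0.690). *Hs2st1*, the 2-O-sulfotransferase, had a difference of -0.09 (SE 0.08). *Slc35b2*, which carries the sulfate donor into the Golgi, had 952 and 1045 in high and 1186 and 1243 in low MMP samples, a difference of -0.28 (SE 0.09, limma unadjusted p 0.0306, adjusted p 0.472). The third of the most abundant genes of this list, *Impad1*, a Golgi phosphatase that clears a by-product of sulfation, differed by -0.09 (SE 0.11).

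Of the 10 genes that activate sulfatases or degrade the chain in lysosomes, 0 passed. *Gusb*, the lysosomal beta-glucuronidase, differed by -0.16 (SE 0.13) and *Ids*, the iduronate sulfatase, by 0.12 (SE 0.11) on the log2 scale. *Sumf1*, which forms the active site residue that sulfatases including *Sulf2* need, had 591 and 633 normalized reads in high and 581 and 623 in low MMP samples (named after its values were seen).

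The proteins that shed or sort syndecans also gave 0 of 6 past the threshold. *Mmp9*, a metalloproteinase that can shed syndecans, swung between replicates, with 7548 and 18121 normalized reads in high and 13651 and 8565 in low MMP samples, and its log2 difference of 0.11 (SE 0.50) became -0.52 without high MMP replicate 2 and -0.22 without low MMP replicate 2. *Sdcbp*, the syntenin that binds the tails of syndecans, differed by 0.14 (SE 0.15) and *Mmp14*, a membrane-bound metalloproteinase, by -0.04 (SE 0.17). The value of *Sdcbp* became -0.05 and that of *Mmp14* 0.17 without high MMP replicate 1.

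Among the ligands that heparan sulfate binds, 0 of 15 passed in limma. The list's median log2 difference was 0.26 over the 10 genes whose mean reached 10. In 4 of these (*Fgf1*, *Hbegf*, *Areg* and *Pdgfb*) both high MMP samples were above both low (40.0%, against 14.3% of all such genes), whereas *Tgfb1* was the other way round. *Fgf1* had only 14 to 24 reads per library, and its high MMP 2 and low MMP 2 values were nearly equal (13.4 and 13.3 normalized reads). *Hbegf*, a heparin-binding ligand of the EGF receptor, had 5017 and 6126 normalized reads in high and 4177 and 4556 in low MMP samples, a log2 difference of 0.35 (SE 0.13, limma adjusted p 0.526). *Pdgfb*, a ligand held by heparan sulfate through its basic tail, had 2322 and 2862 in high and 1911 and 2208 in low MMP samples, a difference of 0.33 (SE 0.15, limma adjusted p 0.588). In edgeR with crossed replicate numbers the adjusted p was 0.0342 for *Hbegf* and 0.0343 for *Pdgfb*. *Wnt7b* did not separate the groups, at 3648 to 4297 and a difference of 0.00 (SE 0.11). *Areg*, another EGF receptor ligand (named after its values were seen), had 1046 and 1197 in high and 972 and 908 in low MMP samples, and a difference of 0.25 (SE 0.10, limma adjusted p 0.558). *Fgf2*, the best known heparan sulfate ligand, had 1 to 4 reads per library. These are too few to judge its log2 difference of -1.07 (SE 0.35, limma unadjusted p 0.0347, adjusted p 0.472).

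The receptors had a median of -0.15 over 12 genes, and 0 of 15 passed in limma. *Met*, the HGF receptor, differed by -0.16 (SE 0.18), and by 0.08 without high MMP replicate 1. *Fzd6* differed by 0.11 (SE 0.10) and *Lrp6*, a Wnt co-receptor, by 0.05 (SE 0.22), with *Lrp6* at -0.22 without high MMP replicate 2 and -0.07 without low MMP replicate 2. *Pdgfra*, a PDGF receptor (named after its values were seen), had 319 and 363 normalized reads in high and 536 and 589 in low MMP samples. Its log2 difference of -0.72 (SE 0.11) had an adjusted p of 0.472 in limma, 0.580 in edgeR with no block, 0.0511 in edgeR with the replicate block and 0.0412 in DESeq2, where it was the 1 pathway gene called. *Pdgfra* also belongs to the fibroblast markers, and the other 3 of these with values, *Dcn*, *Col1a1* and *Col1a2*, had 0 to 39 reads per library, so the summed level of that list (337 to 397 in high and 572 to 622 in low MMP cells) is mostly *Pdgfra* itself. The part of other cells in its difference was not tested.

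**Figure D3:**
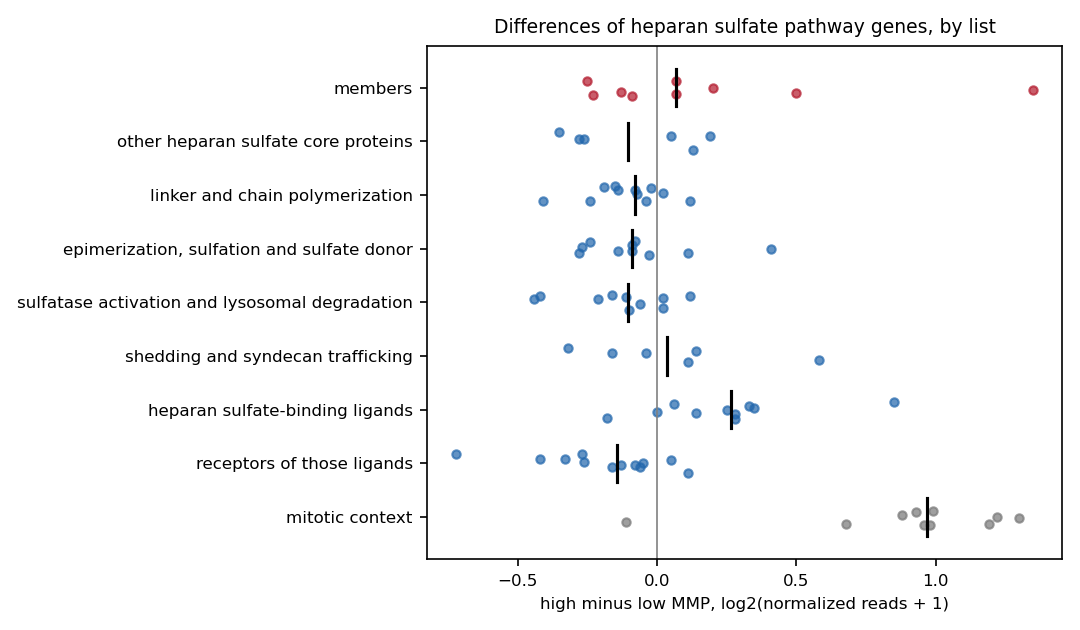
Difference between high and low MMP cells (horizontal axis, log2 of normalized reads + 1) of each gene averaging 10 normalized reads or more, by list, with a vertical line at each list's median. The members (red, median 0.07 with *Sulf2*) lie between -0.25 and 0.50 apart from *Sulf2*, the ligands have a median of 0.26 and the receptors of -0.15, and the 10 mitotic genes (grey) have a median of 0.97.

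The genes with the pattern most like *Sulf2* over the 4 samples were found by the distance between log2 values centred on each gene's mean, among the 12901 others at a mean of 10 or more. The values that picked *Sulf2* are used here, so the list is a description of which genes shared its profile. The nearest was *Has3*, a hyaluronan synthase, at a distance of 0.142. It had 22.7 and 23.4 normalized reads in high MMP 1 and 2 and 10.5 and 7.97 in low MMP 1 and 2, on 9 to 30 reads per library. Its samples had the same order as those of *Sulf2*, highest in high MMP 2 and lowest in low MMP 2, at far fewer reads. At 30 and 28 reads in high MMP 1 and 2, and 12 and 9 in low MMP 1 and 2, the order within a group carries no weight.

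The next 3 were the mitotic genes *Prc1* (distance 0.356), *Nusap1* (0.372) and *Ube2c* (0.378). *Prc1*, which bundles microtubules of the spindle midzone, had 6256 and 7054 normalized reads in high and 2799 and 3039 in low MMP samples. *Ube2c*, the ubiquitin-conjugating enzyme of the anaphase-promoting complex, had 4946 and 4777 in high and 1879 and 2087 in low MMP samples. The fifth was *Postn*, the matrix protein periostin (distance 0.387), with 65.9 and 85.4 in high and 39.2 and 34.5 in low MMP samples. All 5 were higher in both high MMP samples.

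**Figure D4:**
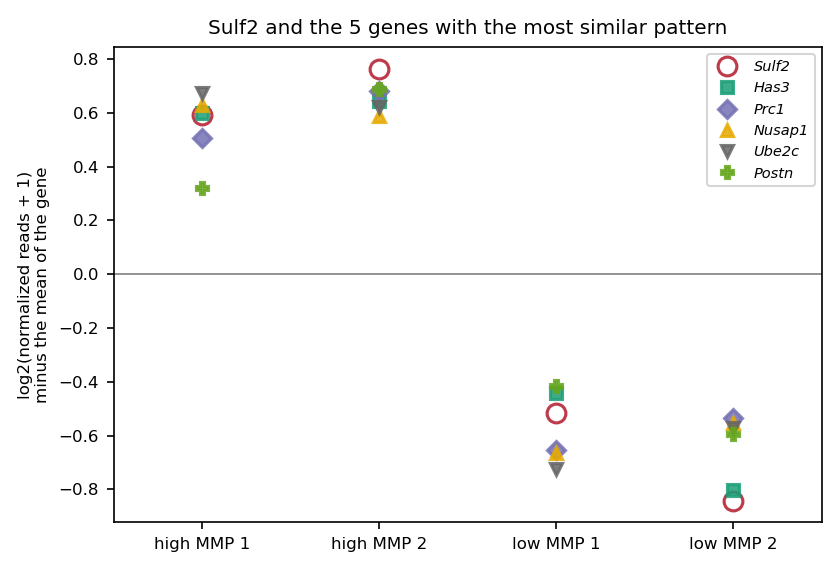
Log2(normalized reads + 1) minus the mean of the gene (vertical axis) in the 4 libraries, for *Sulf2* (open red circles) and the 5 genes with the smallest distance to it. All 6 genes lie above 0 in both high MMP libraries and below 0 in both low MMP libraries, and *Has3* lies closest to *Sulf2*.

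Other members were far from this profile. *Sdc3* came nearest, with rank 182 (distance 0.895), followed by *Hs6st1* with rank 1176, and the remaining members had ranks of 3072 to 10486. Most of 10 mitotic genes moved with the sort. Their summed level was 88755 and 96510 in high MMP 1 and 2 and 53048 and 55830 in low MMP 1 and 2. In 9 of the 10, both high MMP samples were above both low (90.0%, against 14.3% of all genes at a mean of 10 or more). The median log2 difference was 0.97. The exception was *Mki67*, at -0.11 (SE 0.18) with overlapping groups. The 10 include *Prc1*, *Nusap1* and *Ube2c*, named above for their likeness to *Sulf2*. They were listed with earlier results of these data known, so their share is a description. The part of the mitotic difference in the level of *Sulf2* was not tested.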

How the data were processed

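Stranded mRNA libraries were prepared from 200 ng of RNA of 100000 sorted cells per sample. The authors aligned 75-base reads to the mouse transcriptome (GRCm38/mm10) with STAR, and HTSeq is also named in the submitters' processing notes (versions and annotation release are not given in the sources used here). The deposited values are a signal per gene, gene counts scaled by the authors to a common library total and filtered for detection (0 genes of the table are above 0 in fewer than 2 of the 4 samples). Dividing each column by its smallest value above 0 recovered whole reads for 100.0% of values (within 0.05).

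Symbols, positions and union exon lengths came from GENCODE M21 (19993 of 20197 identifiers matched), and promoter windows from RefSeq on GRCm38.p6, which held 7 of the 9 members and 4 of the 5 genes most like *Sulf2*. *Bpnt2* of the lists is *Impad1* in GENCODE. Log2(value + 1) was tested with limma 3.58.1 (trend on mean expression, R 4.3.3), high against low MMP without a block, and adjusted by Benjamini-Hochberg over 20197 genes. On this scale differences of weakly expressed genes come out too small. Alternatives were edgeR 4.0.16 and DESeq2 1.42.0 on recovered reads (edgeR by quasi-likelihood), pseudocounts of 0.5 and 5, filters on a mean of 1 and 10, other scalings, a replicate block and leaving out each sample. The fitting scripts were tested on simulated data.

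Named genes were all members, the 3 genes of highest mean in each list, and the 5 most like *Sulf2*. Genes outside this rule are marked, and 1 gene that it names is not reported here. The members and lists were chosen with earlier results of these data known.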

Additional observations from a re-analysis of the deposited data

How the results depend on the processing

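No tested member and no gene of the pathway lists passed in limma under any of the alternatives run, including other pseudocounts, filters, scalings and leaving out each sample. On recovered reads the count over all genes was 0 in edgeR with no block, 106 in edgeR with the replicate block (63 higher and 43 lower in high MMP cells) and 118 in DESeq2 (82 higher and 36 lower). Of the tested members, which leave out *Sulf2*, 0 were called in each, and 1 pathway gene (*Pdgfra*) was called in DESeq2. Unadjusted p-values under 0.05 numbered 2011 in limma, 1423 in edgeR with no block and 1055 in limma with the replicate block, where 0 genes passed.

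The shared sample numbers are not said to mark a common day or culture, and same-numbered samples deviated in opposite directions (r = -0.421 across 12902 genes, which are not independent replicates). With crossed numbers, chosen after seeing the data, edgeR called 733 genes, among them 1 tested member (*Sdc3*) and 3 pathway genes (*Hbegf* and *Pdgfb* higher, *Pdgfra* lower), and limma 0. The cause was not tested.

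Among the genes named as members or by level, leaving out a sample changed the sign of *Sdc4* (-0.08 to 0.22), *Gpc1* (-0.62 to 0.16), *Hs6st1* (-0.09 to 0.49), *Hspg2* (-0.67 to 0.11), *Agrn* (-0.71 to 0.19), *Ugdh* (-0.04 to 0.08), *Fam20b* (-0.16 to 0.02), *Extl3* (-0.46 to 0.15), *Impad1* (-0.20 to 0.02), *Mmp9* (-0.52 to 0.74), *Sdcbp* (-0.05 to 0.32), *Mmp14* (-0.26 to 0.17), *Wnt7b* (-0.12 to 0.12), *Met* (-0.40 to 0.08) and *Lrp6* (-0.22 to 0.32). *Mmp14* was 0.01 in both edgeR with no block and DESeq2. *Sulf2*, picked on these values, lay between 1.31 and 1.44 in the alternatives with all samples. With 2 samples per group, or 60 to 81 reads as for *Hpse*, small differences were not detectable.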
